A study of Mus musculus with 120 samples.

Results

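Windows at the ends of protein-coding genes were 2079 of the 8961 windows of 1 kb that the authors called as differing in DNA methylation between App-NLGF and wild-type mice. A window was taken when it lay on chromosomes 1 to 19 and within 1 kb of the start or end coordinate of a coding gene in the RefSeq gene table of GRCm38.p6, the assembly also known as mm10. Of the called windows, 8381 lay on these chromosomes, 6302 of them away from gene ends, and 580 lay on X or on scaffolds and were not used. Membership rested on position alone and used no measured value beyond the authors' calls.

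Bisulfite sequencing of the whole genome was used on hippocampus and blood from App-NLGF mice, whose own App gene carries a humanised amyloid-beta sequence with the Swedish, Iberian and Arctic mutations, and of wild-type mice. The labels gave 120 libraries in 12 groups of 10, 60 per tissue, for postnatal weeks 3, 8 and 24, with 5 of each sex in every group. A knock-in allele sits in the germline, so blood carries it as hippocampus does. Genotypes were compared within tissue and week with sex as a covariate, which gave 6 lists of called windows with an adjusted p under 0.1 and a difference of at least 10 percentage points. Each difference is the authors' value in percentage points and was taken to be App-NLGF minus wild type on the name of the comparison alone. No levels, read coverage or single libraries were analysed here, so no spread between mice stands beside any value, and the labels do not say whether both tissues came from the same mice. In both bulk tissues, a change in the makeup of cells and a change of methylation within cells cannot be told apart.

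Cytosines followed by guanine, called CpG sites, carry most DNA methylation in mammals. Starts of broadly active genes commonly lie in stretches rich in CpG sites, named CpG islands, which are usually kept free of methylation, while starts of many genes used in few cell types are poor in CpG and often methylated. Bodies and far ends of genes are mostly methylated. A difference of a given size at a start thus bears on different starting levels in these classes, and those levels were not measured here.

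Sequences before gene starts are shown for both classes, with each CpG in capitals. They are the bases directly upstream of the gene, 5′ to 3′ on its own strand, from the RefSeq promoter table of GRCm38.p6, cut off where another annotated coding gene begins. The first 3 belong to starts with small adjusted p-values in the blood week 8 list, each with such a stretch inside the called window. Some starts with smaller adjusted p-values, as at Zfp81 and Rab12, have no sequence shown. Scfd2 (chr5:74531743-74531992, minus strand) encodes a Sec1 family protein, Eef1a1 (chr9:78481725-78481974, minus strand) the elongation factor that brings aminoacyl-tRNA to the ribosome, and Rrp9 (chr9:106477059-106477308, plus strand) a protein of the U3 particle that processes ribosomal RNA.
Scfd2: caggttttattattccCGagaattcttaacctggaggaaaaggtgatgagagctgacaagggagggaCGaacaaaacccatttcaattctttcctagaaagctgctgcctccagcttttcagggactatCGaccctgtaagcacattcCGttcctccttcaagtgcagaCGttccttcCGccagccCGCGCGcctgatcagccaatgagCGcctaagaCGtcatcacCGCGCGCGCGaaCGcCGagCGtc
Eef1a1: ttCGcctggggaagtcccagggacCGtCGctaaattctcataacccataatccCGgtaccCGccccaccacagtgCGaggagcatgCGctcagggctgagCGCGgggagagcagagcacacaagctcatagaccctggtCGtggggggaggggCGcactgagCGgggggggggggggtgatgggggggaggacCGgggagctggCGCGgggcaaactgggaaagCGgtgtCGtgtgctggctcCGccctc
Rrp9: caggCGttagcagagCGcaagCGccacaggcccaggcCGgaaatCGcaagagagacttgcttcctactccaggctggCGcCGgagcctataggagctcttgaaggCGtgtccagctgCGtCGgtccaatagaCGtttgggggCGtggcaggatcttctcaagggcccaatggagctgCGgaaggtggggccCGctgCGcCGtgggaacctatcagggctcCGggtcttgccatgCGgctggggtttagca

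These 250-base stretches held 19, 18 and 18 CpG sites. In the authors' deposited table the windows over them were lower in App-NLGF blood at week 8, Scfd2 by -11.4 points (adjusted p = 1.05e-10), Eef1a1 by -11.8 (4.46e-09) and Rrp9 by -12.8 (4.46e-09). A decrease needs a wild-type level over the whole window at least as high as its own size. Each window of 1 kb is wider than the printed bases. Where in it the difference lay is not known, and no level was measured in these bases.

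The next 5 sequences give 1 start from each other list, each with at least 60 such bases inside the window. They are not always the largest change at a start. Larger changes at starts, as at Tmem200a, Pdhx, Olfr295 and Olfr1280, are described further on without sequence. Srp54b (chr12:55154919-55155103, plus strand, hippocampus week 3) encodes a signal recognition particle subunit. Vmn1r224 (chr17:20418913-20419162, plus strand, hippocampus week 8) encodes a vomeronasal receptor, Trpv1 (chr11:73233899-73234148, plus strand, hippocampus week 24) the heat and capsaicin channel, Olfr378 (chr11:73428478-73428727, minus strand, blood week 3) an olfactory receptor, and Copz2 (chr11:96849626-96849875, plus strand, blood week 24) a subunit of the COPI vesicle coat.
Srp54b: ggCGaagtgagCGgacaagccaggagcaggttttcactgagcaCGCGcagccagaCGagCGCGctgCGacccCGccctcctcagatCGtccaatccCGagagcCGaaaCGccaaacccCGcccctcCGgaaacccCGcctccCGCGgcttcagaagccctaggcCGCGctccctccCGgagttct
Vmn1r224: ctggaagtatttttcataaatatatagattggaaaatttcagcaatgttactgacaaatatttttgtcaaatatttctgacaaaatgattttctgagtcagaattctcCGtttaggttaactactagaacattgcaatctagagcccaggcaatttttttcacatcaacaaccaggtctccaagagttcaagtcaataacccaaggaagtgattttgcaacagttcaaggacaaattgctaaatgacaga
Trpv1: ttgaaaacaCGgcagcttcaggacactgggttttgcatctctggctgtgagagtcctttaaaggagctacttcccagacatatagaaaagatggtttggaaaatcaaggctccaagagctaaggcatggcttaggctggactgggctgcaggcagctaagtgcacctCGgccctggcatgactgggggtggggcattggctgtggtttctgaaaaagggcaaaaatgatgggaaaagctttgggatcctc
Olfr378: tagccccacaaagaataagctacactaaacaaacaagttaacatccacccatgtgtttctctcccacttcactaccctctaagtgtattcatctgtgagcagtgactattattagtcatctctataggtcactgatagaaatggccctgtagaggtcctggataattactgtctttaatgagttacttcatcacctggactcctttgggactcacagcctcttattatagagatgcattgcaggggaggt
Copz2: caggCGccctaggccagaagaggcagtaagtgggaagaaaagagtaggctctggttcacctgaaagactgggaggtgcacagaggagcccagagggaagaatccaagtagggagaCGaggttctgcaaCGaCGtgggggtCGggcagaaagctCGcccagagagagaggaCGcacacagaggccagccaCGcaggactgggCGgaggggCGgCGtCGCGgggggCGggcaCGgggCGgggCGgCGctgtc

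Srp54b held 21 CpG sites in 185 bases and Copz2 18 in 250, whereas Vmn1r224, Trpv1 and Olfr378 held 1, 2 and 0. In the authors' deposited table the window at Srp54b differed by -17.3 points (adjusted p = 0.0209), Vmn1r224 by 27.8 (0.0999), Trpv1 by -15.7 (0.0946), Olfr378 by -20.2 (0.043) and Copz2 by 10.7 (0.0941). These 5 starts thus included sequences rich and poor in CpG, with differences of either sign.

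Windows at gene ends were spread very unevenly over the lists. Blood at week 8 held 1872 of the 2079, against 60 in hippocampus at week 3, 31 at week 8 and 39 at week 24, and 60 in blood at week 3 and 17 at week 24. They made up 43.8% of the called windows on these chromosomes in blood at week 8 (95% exact Clopper-Pearson interval 42.3% to 45.3%). The share was 6.25% in hippocampus at week 3 (4.8% to 7.97%), 4.5% at week 8 (3.08% to 6.33%) and 4.43% at week 24 (3.17% to 6.01%). In blood it was 5.57% at week 3 (4.27% to 7.11%) and 3.42% at week 24 (2% to 5.42%). These intervals treat windows as independent and cover counting error only, not mice. Laying the same 1 kb grid over these chromosomes placed 4.47% of all windows at gene ends, which lay inside the intervals of 4 lists, just below that of hippocampus week 3 and far below that of blood week 8.

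**Figure D1:**
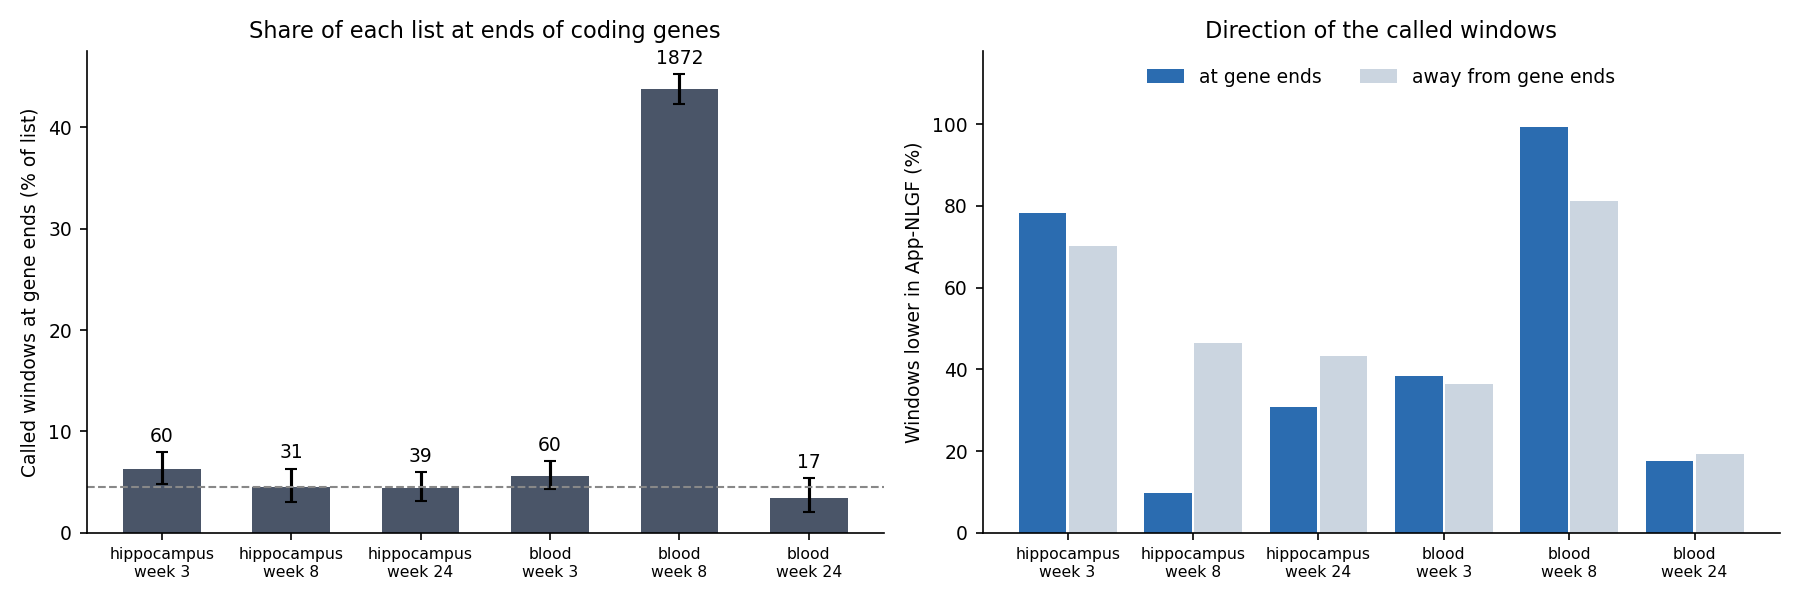
Left, share of each list's called windows on chromosomes 1 to 19 that lay at ends of coding genes (percent, exact 95% intervals, number of windows above each bar), with the dashed line at the 4.47% of the grid. Right, percent of windows lower in App-NLGF mice at gene ends and away from them; blood week 8 stands apart on the left at 43.8%, and 99.4% of its windows at gene ends were lower.

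Set against the grid, the share of windows called in blood at week 8 was 1.72% of the 108690 at gene ends and 0.104% of the 2321466 away from them. In hippocampus it was 0.0552% at gene ends and 0.0388% away at week 3, 0.0285% and 0.0283% at week 8, and 0.0359% and 0.0362% at week 24. Blood at week 3 had 0.0552% at gene ends and 0.0439% away, and at week 24 it had 0.0156% and 0.0207%. Grid windows that were not covered or not tested by the authors cannot be told from those tested and not called, so these are lower limits of the share called among tested windows. Counted by gene, 2144 of 20665 coding genes (10.4%) had a window at an end in blood at week 8. The number was 65 (0.315%), 33 (0.16%) and 48 (0.232%) in hippocampus at weeks 3, 8 and 24, and 63 (0.305%) and 17 (0.0823%) in blood at weeks 3 and 24.

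Direction differed between lists. At gene ends in blood at week 8, 1861 windows were lower in App-NLGF mice and 11 higher, so that 99.4% were lower, against 81.1% of the windows away from gene ends. Hippocampus at week 3 had 47 lower and 13 higher (78.3%, against 70.3% away). At week 8 the hippocampus had 3 lower and 28 higher (9.68% lower, against 46.5% away), and at week 24 it had 12 lower and 27 higher (30.8%, against 43.3%). Blood at week 3 had 23 lower and 37 higher (38.3%, against 36.5%) and at week 24 it had 3 lower and 14 higher (17.6%, against 19.2%). Of all lower windows in blood at week 8, 48.8% lay at gene ends, and of all higher windows 2.36%.

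The median absolute difference at gene ends was somewhat below that elsewhere in all 6 lists, with overlapping quartile ranges in each. The median absolute difference in blood at week 8 was 11.2 points (quartiles 10.5 and 12.2) at gene ends and 12.1 (10.8 and 14.1) away, and 97.4% at gene ends were under 15 points, against 81.2% away. The medians at gene ends and away were 12.2 and 13.9 points in hippocampus at week 3, 12.5 and 13.4 at week 8, and 13.5 and 13.9 at week 24. In blood they were 13.6 and 14.8 at week 3 and 13 and 13.7 at week 24. All are medians above the 10-point limit of the list and so say nothing of smaller differences. The adjusted p-values of the windows at gene ends in blood at week 8 were low, with a median of 0.00314 against 0.0379 away, and 706 of the 936 windows of that list with an adjusted p under 0.001 lay at gene ends. In the other 5 lists 0 to 2 windows at gene ends fell under 0.001.

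**Figure D2:**
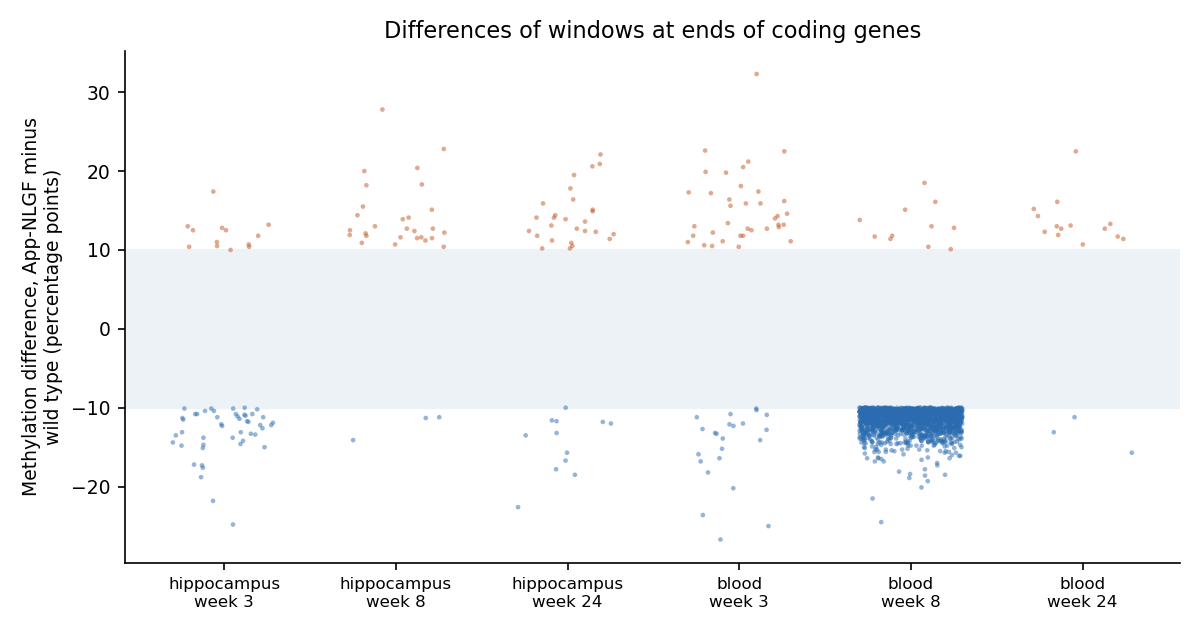
Each point is a called window at the end of a coding gene, with its methylation difference in percentage points (App-NLGF minus wild type) for each tissue and week, blue where lower and orange where higher. The grey band between -10 and 10 holds no window because of the list's limit; the 1861 lower windows of blood week 8 crowd below it, with a median of -11.2 points.

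The strand of a gene, and with it which coordinate is its transcription start, was known for 16457 of the 20665 coding genes (79.6%). Of the windows of blood at week 8, 1329 lay at a start alone, 1327 of them lower in App-NLGF mice. A further 124 lay at both a start and an end, all of them lower, 65 at an end alone (61 lower) and 354 at genes with no strand in the table used (349 lower). As shares of the grid, 3.27% of windows at starts were called and 0.164% of those at ends alone, close to the 0.104% away from gene ends. The called windows at gene ends in blood at week 8 were thus mainly windows at starts. For hippocampus at week 3 the same shares were 0.0763% at starts (31 windows, 27 lower) and 0.0227% at ends alone (9 windows, 4 lower). At week 24 the order in hippocampus was the other way, with 0.032% at starts (13 windows) and 0.0556% at ends alone (22 windows), and in blood at week 3 they were 0.0591% (24 windows) and 0.0556% (22 windows).

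The position of the lower windows of blood at week 8 relative to the start was not symmetric. Windows centred within 250 bp of a start were called in 7.02% of cases (557 of 7935). Downstream of the start, inside the gene, 5.64% were called at 500 bp, 2.59% at 1000 bp and 1.31% at 1500 bp. Upstream the shares were 2.91% at 500 bp, 0.746% at 1000 bp and 0.366% at 1500 bp, so the fall was steeper before the start than after it. Between 3000 and 4500 bp on either side 0.343% were called. Around the 7445 gene ends with no start within 10 kb, 17 of 25842 windows centred within about 1500 bp were called lower (0.0658%).

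**Figure D3:**
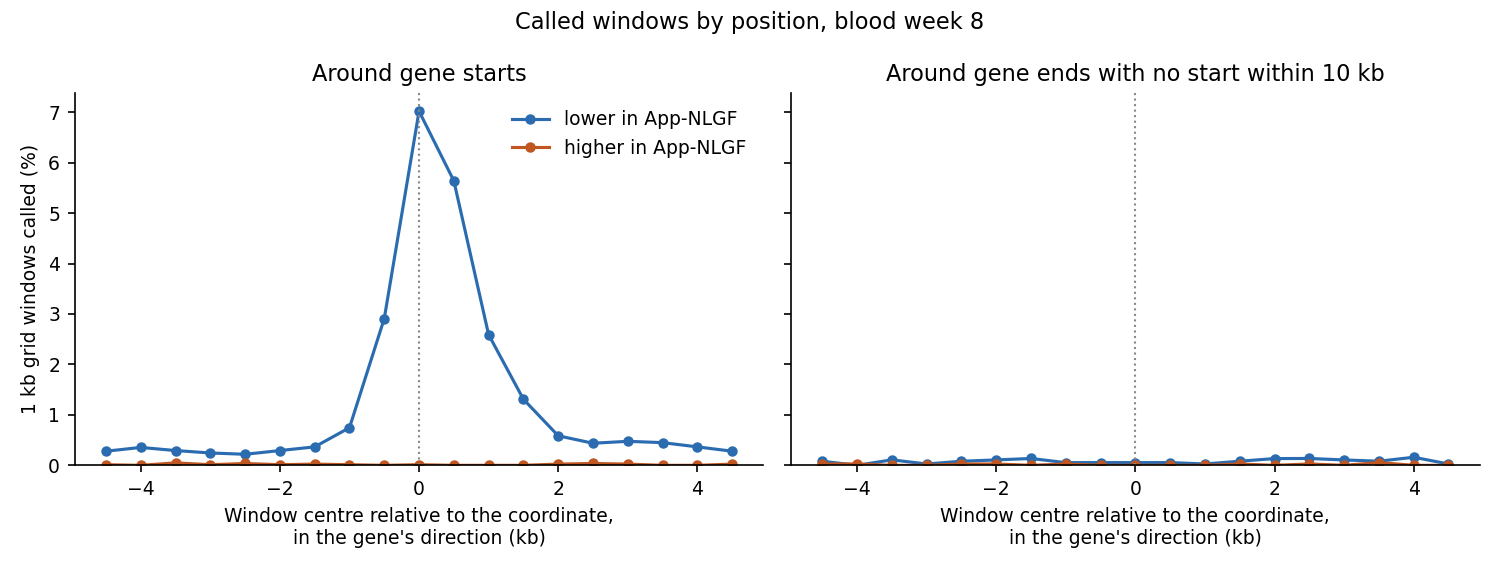
Percent of 1 kb grid windows called in blood at week 8, in bins of 500 bp by the distance of the window's centre from the gene's start (left) and from gene ends with no start within 10 kb (right), in the gene's own direction, in kb. The blue line of windows lower in App-NLGF mice peaks at 7.02% at the start and leans into the gene; the orange line of higher windows and both lines on the right stay near 0.

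The windows were also grouped by distance within the 1 kb limit. Among those of blood at week 8, 1165 windows contained a gene's start or end coordinate (1162 lower), 484 lay up to 500 bp away (477 lower) and 223 lay beyond that but within 1000 bp (222 lower). The median difference was -11.2 points in each of these. Just outside the limit, 133 windows lay within 1500 bp (125 lower, median -11.2) and a further 99 within 2000 bp (95 lower, median -11.5).

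Most genes had a single window. At blood week 8, 2029 genes had 1 window at an end, 109 had 2 and 6 had 3, and in the other 5 lists each gene had 1. Of the same windows, 374 lay near 2 or more coding genes, and 203 lay within 1 kb of starts on both strands. How often grid windows at gene ends have these arrangements was not counted, so neither number sets the called windows apart. Touching windows formed 1800 separate regions, of which 1733 were single windows, 62 held 2 and 5 held 3. The 5 regions of 3 windows lay at Fam72a and Srgap2, at Lhx9, at the histone genes H1f1, H3c1 and H4c1, at Col14a1, and at Brd2 and H2-DMa. In the authors' deposited table the windows of Brd2, a reader of acetylated histones, and H2-DMa, which loads peptides on class II molecules, ranged between -14.5 and -12 points. Those of Lhx9, a homeobox factor, ranged between -11.5 and -10.6, and those of the histone genes between -14.9 and -10.6, all lower in App-NLGF mice. The share of grid windows at gene ends called in blood at week 8 was lowest on chromosome 7 (1.28%) and highest on chromosome 17 (2.13%), so every autosome took part.

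The promoters behind the start windows of blood at week 8 were rich in CpG. Promoter sequences of 300 bases, 250 before and 50 after the start, were matched for 14811 coding genes. The 1493 with a start window in blood at week 8 had a median of 22 CpG sites (quartiles 16 and 28), against 14 (4 and 25) over all 14811. The ratio of observed to expected CpG was 0.779 against 0.604, and the median GC content 62.3% against 56.7%. With 0 to 5 sites 0.966% of promoters had such a window (45 of 4660), with 6 to 10 sites 6.56%, with 11 to 15 sites 12.3% and with 16 to 20 sites 16%. The share was highest with 21 to 25 sites, at 20.6% (362 of 1760), and was 18.7% with 26 to 30 and 12.1% with over 30 (255 of 2100). Median differences per class of CpG content lay between -11.8 points (0 to 5 sites) and -11.1 (21 to 25 sites and over 30). All these windows passed the 10-point limit of the list, so the medians cannot show whether size follows CpG content.

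**Figure D4:**
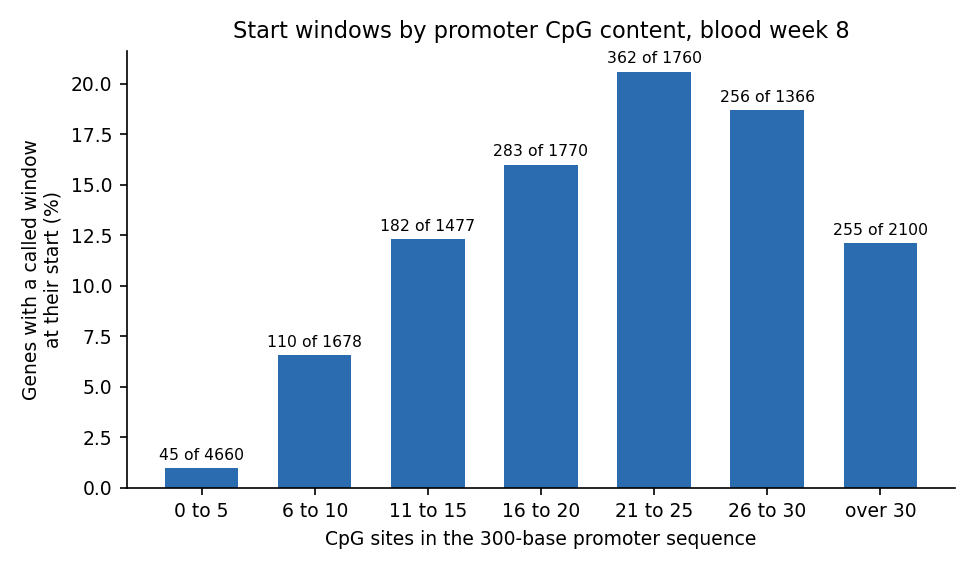
Percent of coding genes with a called window at their start in blood at week 8, by the number of CpG sites in the 300-base promoter sequence, with the counts above the bars. The share is 0.966% in the poorest class, 20.6% at 21 to 25 sites and 12.1% above 30.

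In the other lists the start windows were few. The 29 promoters with a lower start window in hippocampus at week 3 had a median of 21 CpG sites, and the 4 with a higher one had 1. For blood at week 3 the 8 lower ones had 2 and the 14 higher ones 15.5. For hippocampus at week 8 the 21 higher ones had 12, and at week 24 the 10 higher ones had 10.5 and the 5 lower ones 4. The 6 higher ones of blood at week 24 had 23.

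Short motifs of the core promoter were counted on both strands of the same 300 bases. The GC box GGGCGG, the site of Sp factors, was in 71.1% of promoters with a start window in blood at week 8 and in 47.8% of all 14811. The TATA box TATAAA, typical of starts poor in CpG, was in 6.97% and 13.9%. The CCAAT box, CCAAT, was in 42.6% and 39.4%, the E-box CACGTG in 12.1% and 8.09%, and the Ets motif CCGGAAGT in 8.77% and 5.56%. Among promoters with 16 to 30 CpG sites, 901 with a window and 3995 without, the GC box was in 76% and 73.7%, TATAAA in 5.44% and 5.53%, the Ets motif in 9.99% and 10.1%, and CCAAT in 46.4% and 39.4%. The differences in the GC box, TATAAA and the Ets motif thus nearly vanished within one range of CpG content, and that in CCAAT did not. GGGCGG holds a CpG itself and so overlaps with the CpG count. The cAMP response element TGACGTCA, the Nrf1 motif GCGCATGCG and the element CTCGCGAG were each in under 5% of promoters in every class. No test was made, and a match is not a bound site.

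Gene families were described by the share of members with a window at either end in blood at week 8, beside the 10.4% of all coding genes. Families were matched by gene symbol. Of 1268 genes in 16 families of cell maintenance, 243 (19.2%) had such a window. All 236 windows of these families were lower in App-NLGF mice, as were 99.4% of all windows at gene ends in that list. The families were not compared at like promoter CpG content. Over all coding genes with 16 to 30 CpG sites in the promoter, between 16% and 20.6% per class had a start window in that list. Those shares count start windows only, whereas the family shares count windows at either end. The core and linker histones, the proteins that package DNA, had 28 of 79 (35.4%), with 20 windows among them, since clustered histone genes share windows. Cytosolic ribosomal proteins had 27 of 80 (33.8%), translation factors and their regulators 19 of 70 (27.1%) and the spliceosome, which removes introns, 16 of 59 (27.1%). Mitochondrial ribosomal proteins had 17 of 78 (21.8%), RNA polymerases, general factors and Mediator 21 of 99 (21.2%) and the respiratory chain with ATP synthase 18 of 93 (19.4%). Nuclear transport had 8 of 42 (19%), cell cycle and replication 18 of 101 (17.8%), chaperones 13 of 75 (17.3%), vesicle traffic 19 of 123 (15.4%) and DNA repair 7 of 54 (13%). Near the share of all genes lay mitochondrial import and carriers with 8 of 67 (11.9%), proteasome subunits with 5 of 48 (10.4%), ubiquitin conjugation and removal with 16 of 163 (9.82%) and aminoacyl-tRNA synthetases with 3 of 37 (8.11%). The maintenance families therefore ranged between 8.11% and 35.4%.

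Examples of these families follow by their smallest adjusted p-values, each from the authors' deposited table for blood at week 8, and each lower in App-NLGF mice. For the ribosome, the authors' deposited table gave Rpl7a -10.1 points (adjusted p = 9.42e-13), Rpl29 -13.2 (2.31e-07) and Rpl37 -10.2 (2.15e-05), all proteins of the large subunit. The window of Rpl7a also held the start of Med22, a Mediator subunit read in the opposite direction. For translation elongation, the authors' deposited table gave Eef1b2 -10.1 (3.52e-09) and Eef1g -10.7 (1.43e-08), subunits of the factor that recharges Eef1a1 with GTP. The window of Eef1b2 was shared with Ndufs1, a subunit of respiratory complex I. For the splicing factor Prpf19 the authors' deposited table gave -13.3 (1.86e-05). For the variant histones H3f3a and H2az1 the authors' deposited table gave -11.3 (2.47e-06) and -10.6 (0.000144). Kpna3, a nuclear import receptor, had the largest decrease of the maintenance families in the authors' deposited table, -18.1 points (2.71e-06). The small GTPases Rab12 and Rab31 of vesicle traffic had -11.5 (3.62e-11) and -11.9 (4.89e-07) in the authors' deposited table, and Cdk1, the kinase that drives mitosis, -10.8 (2.42e-05).

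Developmental genes, counted as transcription factors together with Wnt ligands and Frizzled receptors, also had windows at their ends. The homeobox, paired box, Sox, T-box, forkhead and Gata factors outside the Hox clusters had 35 of 151 (23.2%), Wnt ligands and Frizzled receptors 5 of 29 (17.2%) and the Hox clusters 5 of 39 (12.8%). Together these had 45 of 219 genes (20.5%) with a window at either end, beside 10.4% of all coding genes. Of their 50 windows, 26 lay at starts. They were not compared at like promoter CpG content. All 50 windows were lower in App-NLGF mice, as were 99.4% of the windows at gene ends in that list. In the authors' deposited table for blood at week 8, Foxb2 had -12.3 points (adjusted p = 1.49e-06), Tbx2 -12 (7.46e-06) and Hoxa7 -13.5 (0.000174). Wnt6, a secreted ligand, had -12.4 (2.67e-06) in the authors' deposited table. In mammals, starts of developmental and of maintenance genes both commonly lie in CpG islands.

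Zinc finger genes of the Zfp, Zkscan, Zscan and Zbtb names, many of them repressors of transposable elements, had windows in 39 of 455 (8.57%), 38 lower and 1 higher. Zfp81 had the smallest adjusted p of all windows at gene ends in blood at week 8, with -10.4 points (1.81e-13) in the authors' deposited table. Zfp959 had -17.3 (0.000819) and Zbtb9 16.1 (0.0655) in the same authors' deposited table. Genes of restricted expression had few windows, 20 of 1891 (1.06%). Potassium channels and their auxiliary subunits had 8 of 92 (8.7%), clustered protocadherins 4 of 57 (7.02%), interleukins, chemokines and their receptors 2 of 128 (1.56%), olfactory, vomeronasal and taste receptors 6 of 1505 (0.399%), and keratins 0 of 109. The channel genes Kcnq5 and Kcnn1 had -12.2 (4.22e-06) and -15.4 (5.25e-06) in the authors' deposited table. Of signalling genes of immune cells, Il7, a cytokine for lymphocyte development, had -12.7 (0.0167) and Ccr7, the receptor that guides lymphocytes to lymph nodes, -10.6 (0.086) in the authors' deposited table.

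**Figure D5:**
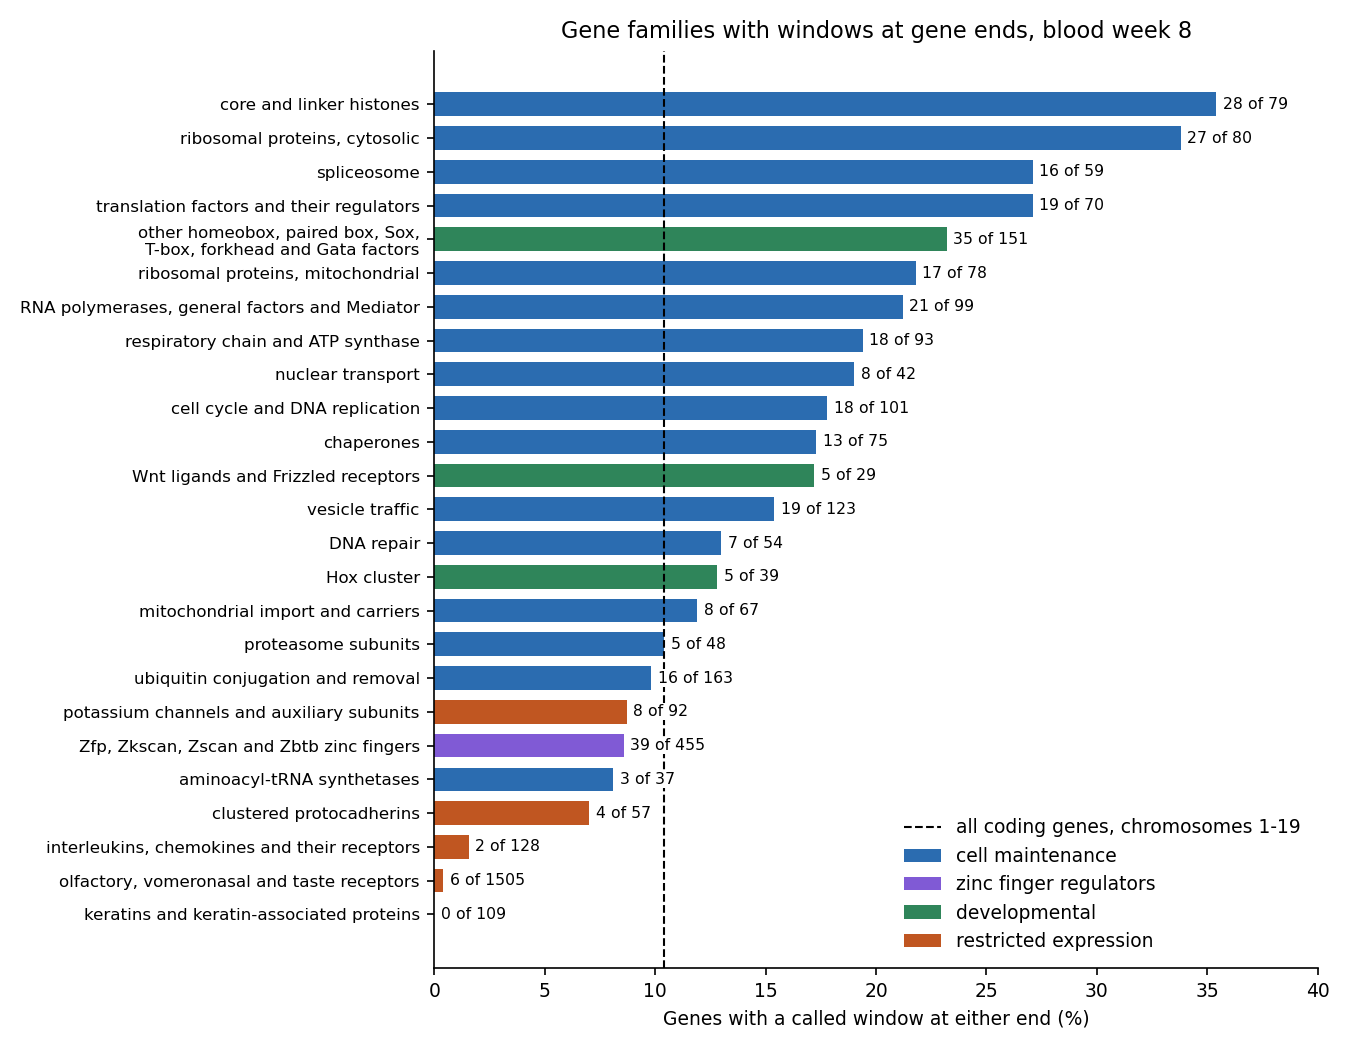
Percent of genes in each of 25 families with a called window at either end in blood at week 8, with counts beside the bars and the dashed line at the 10.4% of all coding genes on chromosomes 1 to 19. Histones and cytosolic ribosomal proteins stand highest at 35.4% and 33.8%, and olfactory, vomeronasal and taste receptors at 0.399% and keratins at 0 lowest.

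In the other 5 lists the families of cell maintenance together had 2 to 4 of 1268 genes with a window at an end (0.158% to 0.315%), and the olfactory, vomeronasal and taste receptors 1 to 6 of 1505 (0.0664% to 0.399%). Both lay near the 0.0823% to 0.315% of all coding genes in these lists. The receptor windows ran across the whole span of sizes. Near the 10-point limit were, in the authors' deposited table, Olfr490 with 10 points (adjusted p = 0.0667) in hippocampus at week 3 and Olfr1458 with -11.2 (0.0475) in blood at week 24, and others were far larger. In the authors' deposited table for hippocampus at week 3, Olfr393 had -21.8 points (adjusted p = 0.0583), Olfr295 -18.8 (0.0919) and Olfr1393, which lies beside Olfr1392, 12.8 (0.0745). At week 8 all 3 of the family were higher in App-NLGF hippocampus, as were 28 of the 31 windows at gene ends there. For these 3 the authors' deposited table gave Vmn1r224 27.8, Olfr1168 20 (0.0648) and Olfr1274 18.2 (0.0967). At week 24 the authors' deposited table gave Olfr1246 -22.6 (0.0207) and Olfr370 22.1 (0.0533), the extremes of that list at gene ends. For blood at week 3 the authors' deposited table gave Vmn1r90 -25 (0.0432) and Olfr1280 21.2 (0.0388). The signs were mixed across lists, and no adjusted p of this family in these lists was under 0.02.

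The named windows of hippocampus at week 3 were led by Mettl27, a methyltransferase-like gene. In the authors' deposited table its start window had -12.2 points with an adjusted p of 1.63e-13, the smallest in that list at gene ends. The next smallest in the authors' deposited table were Mfsd4b4 with -13.8 (0.00116), the zinc finger gene Zfp296 with -10 (0.00163), the zinc transporter gene Slc39a1 with -14.6 (0.00255) and Chmp7, of the membrane-remodelling ESCRT machinery, with -10.4 (0.0028). Of the increases, the authors' deposited table gave Adamts13, the protease of von Willebrand factor, 13.2 (0.0694) and Vmp1, of autophagy, 12.5 (0.0135).

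In hippocampus at week 8 the windows were mostly higher in App-NLGF mice. The authors' deposited table gave 20.4 points (adjusted p = 0.00111) at a window shared by Fis1, of mitochondrial fission, and Cldn15, of tight junctions. The authors' deposited table also gave 18.3 (0.011) at Lgr6, a receptor for R-spondins, 11.6 (0.0194) at Tsn and 22.8 (0.056) at Zfp600. Of the decreases, the authors' deposited table gave -11.3 (0.0667) at Zdhhc14, a palmitoyltransferase, and -11.2 (0.0917) at Ccdc85a.

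In hippocampus at week 24 the smallest adjusted p of the named windows in the authors' deposited table was at the end of Flt4, the lymphatic growth factor receptor, with 16.4 points (0.000263). The authors' deposited table gave 19.5 (0.00829) at the end of Clec4b1, a lectin of myeloid cells, 14.9 (0.00924) at the start of Slc7a9, an amino acid transporter, and -18.5 (0.0387) at the end of Ulk4. The windows of Flt4 and Clec4b1 lay at the far ends of their genes, and 22 of the 39 in that list lay at an end alone. The smallest adjusted p of all 39 was 1.21e-05. It belonged to a window passed over in naming because its nearest gene is a predicted one.

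In blood at week 3 the largest increase and the smallest adjusted p fell on one window, beside Slc6a9, the glycine transporter, and Ccdc24, with 32.3 points (0.00174) in the authors' deposited table. The authors' deposited table gave 22.5 (0.0131) at Cst10, a cystatin, 22.6 (0.0136) at the sperm channel gene Catsper3, -26.7 (0.0901) at Ifi213, of the interferon-inducible family, and -12.7 (0.00768) at Mbp, the myelin basic protein. For blood at week 24 the authors' deposited table gave 13.3 (0.00211) at Fbxw19, 12.7 (0.0121) at Zp3, of the egg coat, 16.1 (0.0291) at Smc1b, a meiotic cohesin, and -15.7 (0.00822) at Tmem200a.

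In blood at week 8 the largest decreases were not those with the smallest adjusted p. The authors' deposited table gave -24.5 points (adjusted p = 0.0324) at the end of Sphkap, an anchor for protein kinase A, -21.5 (0.0191) near Tmem176b and -19.3 (0.00836) at Slco5a1. At the transcription factor Tcf4 the authors' deposited table gave -18.5 (2.44e-07), and at Cuta -18.9 (0.000503). Beside the 1861 decreases, the 11 increases included, in the authors' deposited table, 18.5 (0.000893) at Ythdf3, a reader of RNA methylation, 13 (0.00248) at Grin2b, an NMDA receptor subunit, and 11.7 (0.0871) at Wapl, which releases cohesin. The 8 named windows with the smallest adjusted p were all at starts and mostly near the 10-point limit, and the authors' deposited table gave -10 (7.09e-11) at the shared start of Hmmr and Nudcd2, -10.7 (9.84e-10) at Acin1 and -10.2 (1.18e-09) at Kdm3a, a histone demethylase. At the shared start of Atraid and Slc5a6, the sodium-dependent multivitamin transporter, the authors' deposited table gave -15.5 (4.21e-10).

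Few genes recurred. Of 2342 coding genes with a window at an end in any list, 28 had windows in 2 lists and 0 in 3 or more, and each of the 28 had one of its windows in blood at week 8. Of the 65 genes of hippocampus week 3, 11 were shared with blood week 8, which is 16.9% of that list and 0.513% of the genes of blood week 8. For hippocampus week 8 it was 3 genes (9.09% and 0.14%), for hippocampus week 24 it was 9 (18.8% and 0.42%), for blood week 3 it was 4 (6.35% and 0.187%) and for blood week 24 it was 1 (5.88% and 0.0466%). Beside the 10.4% of all coding genes that had a window in blood at week 8, the shares of the other lists ranged between 5.88% and 18.8%. Of the 11 genes shared by hippocampus week 3 and blood week 8, 10 were lower in App-NLGF mice in every window, as most windows of both lists were. All 3 shared with hippocampus week 8 had windows of both signs, and so had 5 of the 9 shared with hippocampus week 24 and 3 of the 4 shared with blood week 3. The whole lists differed in direction likewise. At gene ends 99.4% of windows were lower in blood week 8, against 9.68% in hippocampus week 8, 30.8% in hippocampus week 24 and 38.3% in blood week 3. Some of the shared genes rest on the same windows and are not separate counts. These are Apip and Pdhx, Med22 and Rpl7a, Prdx2 and Rnaseh2a, Cfap61 and Crnkl1, and Srp54b and Gm2436. The lists compare different libraries, and the counts were not tested.

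The same window was called in 2 lists at 4 of 2075 positions. The start window of Mettl27 had -12.2 points (adjusted p = 1.63e-13) in hippocampus at week 3 and -11.1 (0.000184) in blood at week 8 in the authors' deposited table. At Srp54b, whose sequence is shown above and whose window also reaches Gm2436, the authors' deposited table gave -17.3 (0.0209) in hippocampus at week 3 and -14 (0.00462) in blood at week 8. At the end of Nyap2 the authors' deposited table gave 12.7 (0.0961) in hippocampus at week 24 and 10.1 (0.0302) in blood at week 8. At Eif4a3, an RNA helicase of the exon junction complex, the signs were opposite, with 11.5 (0.023) in hippocampus at week 8 and -11.6 (0.0124) in blood at week 8 in the authors' deposited table.

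Neighbouring windows at one gene could also differ in sign between lists. At the shared start of Apip and Pdhx (Pdhx is a subunit of pyruvate dehydrogenase) the authors' deposited table gave -13.7 points (adjusted p = 6.11e-05) in blood at week 8 and 17.8 (0.09) in the adjoining window in hippocampus at week 24. At Edc3, of messenger RNA decapping, the authors' deposited table gave -13.8 (0.00247) in blood at week 8 and 13.1 (0.0898) in hippocampus at week 24. At Prdx2, a peroxide-reducing enzyme abundant in red cells, and its neighbour Rnaseh2a the authors' deposited table gave 14.3 (0.078) in blood at week 3 and -10.1 (0.0227) in blood at week 8. At Dusp6, a phosphatase of Erk, the sign was the same, with -11.2 (0.054) in hippocampus at week 3 and -12.4 (0.0697) in blood at week 8 in the authors' deposited table. At Med22 and Rpl7a the authors' deposited table gave -13.2 (0.0302) in hippocampus at week 24, beside the -10.1 (9.42e-13) of blood at week 8. At Tmem200a the authors' deposited table gave -15.7 (0.00822) in blood at week 24 and -11.5 (0.00322) at week 8.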

How the data were processed

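The assay was whole-genome bisulfite sequencing. The tools named per the submitters' processing notes are Bismark, methylKit, FastQC and Trim Galore, with the mm10 build and without versions. Genotypes were compared in each tissue and week with sex as a covariate, per the series' design text. The deposited p-values and adjusted p-values, and the deposited differences in percentage points, are the authors' own. How they were adjusted and filtered on coverage is not given in the sources used here, and depth is unknown. Per the labels' protocols, DNA of blood and hippocampus was extracted with different kits, so tissue and kit cannot be told apart.

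From these values, distances to gene coordinates, counts, medians, exact intervals, motif counts and family shares were computed in Python 3.11.15 with pandas 2.3.3, numpy 2.4.6 and scipy 1.17.1. The distance step was checked by brute force on simulated positions. No test was run beyond the authors' own. Strand came from the RefSeq promoter table, which was matched to 79.6% of coding genes and to none of chromosome 18. The grid of each chromosome runs between its first and last coding gene or called window. The members, the 25 families and the rules were chosen with earlier results of these data known, and the symbol patterns of 2 families were corrected after their members were seen. Named windows are, per list, the 5 largest increases, decreases and smallest adjusted p (8 in blood week 8) whose nearest gene is not a predicted one, the recurrent genes, and 3 per family by adjusted p; the text gives a part of these, and some are not reported here. Sequences were picked from start windows by size or adjusted p, limited to stretches of at least 60 bases inside the window and outside coding genes. Not every start with a larger change or a smaller adjusted p has a sequence shown. Of the alternatives, 3 changed the distance rule, 2 the limits of the list and 1 merged touching windows.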

Additional observations from a re-analysis of the deposited data

How the results depend on the processing

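Merging touching windows left the share at gene ends, the share lower and the median difference of all 6 lists within their intervals or spread. With an adjusted p under 0.001, the share of called windows at gene ends became 20% in hippocampus at week 3, 12.5% at week 8 and 13.3% at week 24, and 0% in blood at week 3 and 75.4% at week 8; these rest on 5, 8, 15, 13 and 936 windows, and blood at week 24 had none. The share lower in App-NLGF mice was then 100%, 0% and 0% in hippocampus at weeks 3, 8 and 24 and 99.9% in blood at week 8. With differences of at least 15 points, the share at gene ends was 2.46% in hippocampus at week 3 and 9.76% in blood at week 8, and the share lower was 88.9% in hippocampus at week 3, 0% at week 8 and 93.9% in blood at week 8. Limiting to larger differences thus took away most of the excess at gene ends in blood at week 8, and limiting to smaller adjusted p raised it. Within 500 bp, the share at gene ends was 4.58% in hippocampus at week 3 and 3.99%, 38.6% and 1.41% in blood at weeks 3, 8 and 24. Within 2 kb it was 9.17%, 6.39% and 6.7% in hippocampus and 7.7%, 49.2% and 5.84% in blood, and 98.9% of those of blood at week 8 were lower. Counting only windows that contain the coordinate gave 2.71%, 1.89% and 1.7% in hippocampus and 1.86%, 27.2% and 0.805% in blood. Of these, 0% were lower in hippocampus at week 8, 99.7% in blood at week 8 and 50% in blood at week 24, where the median of the 4 windows turned to -0.274 points from values on both sides of the 10-point limit. A wider or narrower distance changes the share by its own construction. No paired analysis was possible because no values per library were used. Without coverage, a window called on few reads cannot be told from one called on many, and a window missing from a list may have been untested.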
